A study of Mus musculus with 12 samples.

Results

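The imprinted Dlk1-Meg3-Dio3 cluster of mouse chromosome 12 was followed through 6 genes, the noncoding RNAs Meg3, Rian and Mirg and the protein-coding genes Dlk1, Rtl1 and Dio3. They were taken by symbol, with no filter on level, as 12 of the 30399 transcript rows of the table. The set was chosen by the RPKM values of Meg3, which had been seen to divide the PBS libraries, so Meg3 is described here with no test between groups and no correlation. The question was whether the other members divide the libraries in the same way, row by row along the chromosome.

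In this cluster the noncoding RNAs are expressed from the maternally inherited chromosome, and Dlk1, Rtl1 and Dio3 mainly from the paternal one. Meg3, Rian and Mirg follow each other on the same strand and host small nucleolar RNAs and a large group of microRNAs. Dlk1 encodes a transmembrane protein related to Notch ligands, Rtl1 a protein derived from a retrotransposon, and Dio3 the deiodinase that inactivates thyroid hormone. MicroRNAs that lie antisense to Rtl1 are known to cut its messenger RNA.

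The paraventricular nucleus, the hypothalamic nucleus that starts the hormonal stress response, was punched from brains of males of the C57/Bl6:129S6/SvEvTac hybrid strain at 18 to 20 weeks of age. As zygotes, 6 of them (miR, replicates 1 to 6) had been microinjected with 9 microRNA mimics at 1 ng/uL in total, 0.11 ng/uL each. The mimics were those of miR-698, miR-532-3p, miR-375, miR-204, miR-193-5p, miR-32, miR-30c, miR-30a and miR-29c. The other 6 (PBS, replicates 7 to 12) had received the DPBS vehicle alone, and both groups developed in CD1 surrogate dams. Litters are not given in the labels, so p-values measure the spread between these animals only. The miR libraries held about 22.8 to 45.1 M reads and the PBS libraries 27.6 to 38.1 M, as computed from the smallest steps in the values. The labelled tissue was checked by its markers: all 7 listed genes of the nucleus (Oxt, Avp, Crh, Trh, Sst, Sim1 and Otp) had a mean of at least 1 RPKM (reads per kilobase of transcript and per M reads). Oxt ran from 1295 to 3983 RPKM. PBS replicates 8, 9, 10 and 12 stand apart from the other 8 libraries in Meg3 and in many other rows, so results are given below with the position of those 4 libraries. They are not a group of the study. In bulk tissue, fewer cells of a type and less RNA per cell cannot be told apart.

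The microRNA precursors of the cluster appear in the table as short rows of their own. The library holds polyadenylated RNA, so these rows count reads of the longer host transcripts and not mature microRNAs. Of the 59 microRNA genes with rows between Dlk1 and Dio3, 56 had mature sequences in RefSeq (GRCm38.p6), 103 in all. These have 96 distinct seeds (bases 2 to 8). Only 7 seeds are shared, each by 2 microRNAs, such as GGUUGUC in miR-410-5p and miR-494-5p. None of the 103 has the seed of any of the 17 mature arms of the injected microRNAs' genes. The sequences below belong to the precursor rows with a mean of at least 1 RPKM in both groups whose 4 highest libraries were PBS replicates 8, 9, 10 and 12 (miR-1906 and miR-770 inside Meg3, miR-410 and miR-3072 inside Mirg), followed by 3 that lie opposite Rtl1, whose rows did not divide in this way. Capitals mark the seed.
miR-1906: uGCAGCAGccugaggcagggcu
miR-770-5p: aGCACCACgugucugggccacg
miR-770-3p: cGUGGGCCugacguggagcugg
miR-410-5p: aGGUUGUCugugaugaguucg
miR-410-3p: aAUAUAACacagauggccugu
miR-3072-5p: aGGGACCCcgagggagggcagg
miR-3072-3p: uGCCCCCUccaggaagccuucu
miR-431-5p: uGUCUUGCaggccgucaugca
miR-433-3p: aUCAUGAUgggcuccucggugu
miR-127-3p: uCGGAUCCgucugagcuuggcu

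Levels of the 6 genes spanned a wide range. In RPKM, a scale per length, Rian, Dlk1 and Meg3 were the abundant members in miR (74.8 to 90.8, 58.3 to 79.5 and 49.9 to 68.1, highest-mean row of each). The ranges of Rian and Dlk1 overlap, as do those of Dlk1 and Meg3, so the order of these neighbours lies within their spread. Mirg (3.10 to 5.16) and Rtl1 (1.59 to 2.36) lay well below, without overlap with each other or with the abundant members. Dio3 was listed at 0.0187 to 0.0969 RPKM in miR and 0.0161 to 0.0890 in PBS, about 1 to 6 reads per library, too few to show a difference at this depth. In PBS the order of the abundant members depended on the library: Meg3 was above Rian and Dlk1 in replicates 8, 9, 10 and 12, and below Rian in replicates 7 and 11.

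**Figure D1:**
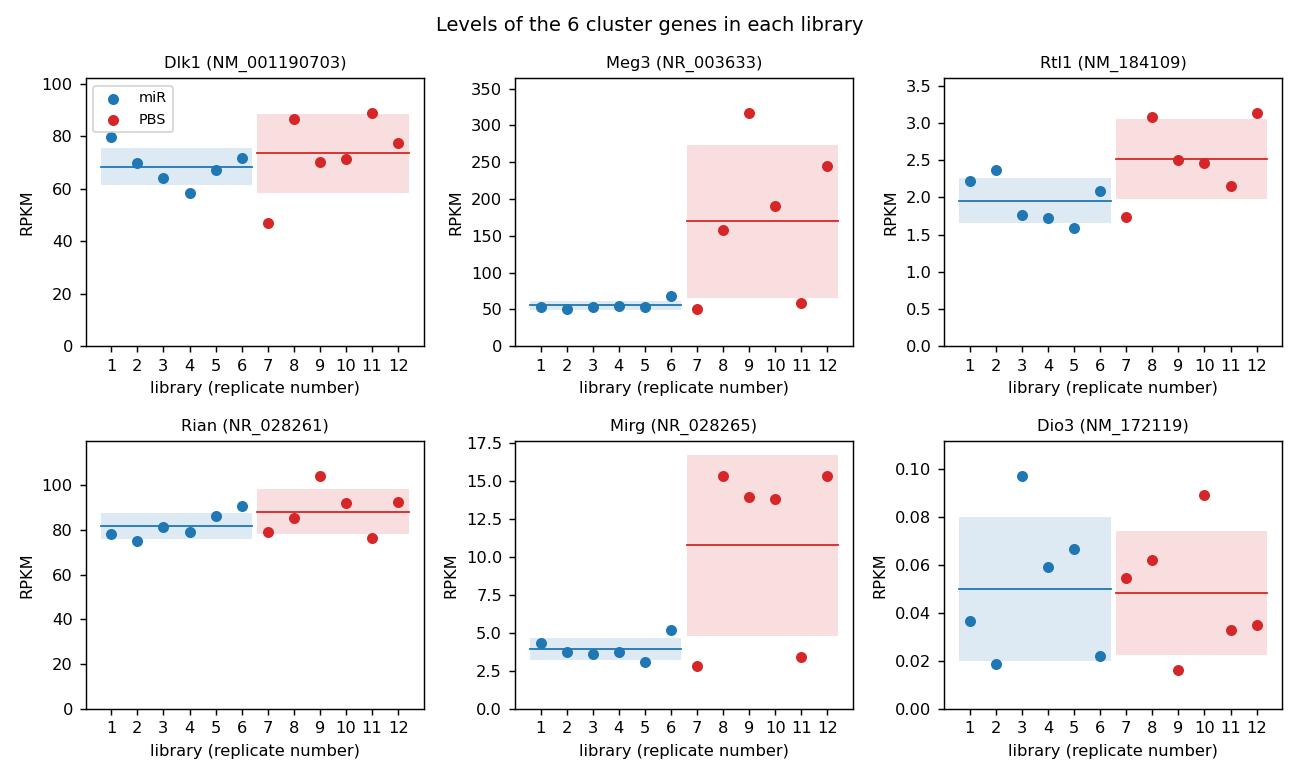
RPKM (vertical axis) of the highest-mean row of each of the 6 genes in each library (horizontal axis, replicates 1 to 6 miR and 7 to 12 PBS); points are libraries, lines group means and bands ± 1 SD (n = 6). Meg3 and Mirg are high in PBS replicates 8, 9, 10 and 12 and at the miR level in replicates 7 and 11. Dlk1 and Dio3 show no such division, and Rian a small one that replicate 8 does not share.

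Meg3, a long noncoding RNA known as a tumour suppressor, has 3 rows that share most of their reads. The row NR_003633 (chromosome 12, 110783608 to 110806810, build mm9, plus strand) had a lowest, median and highest value of 49.9, 53.1 and 68.1 RPKM in miR and of 50.6, 174 and 316 RPKM in PBS. These values chose the set. In PBS replicates 7 to 12 the values were 50.6, 158, 316, 190.0, 58.0 and 245 RPKM. The SD on the log2(RPKM + 0.5) scale was 0.16 in miR and 1.09 in PBS, against a median of 0.11 and 0.13 over all tested rows. The row NR_027651 followed it at 0.985 to 1.001 times its value in all 12 libraries.

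The row NR_027652 (110779206 to 110809939) ends further downstream than the other 2 Meg3 rows, and its level relative to NR_003633 was not constant. The ratio of NR_027652 to NR_003633 was 0.982, 0.844 and 0.946 in PBS replicates 8, 9 and 10. In PBS replicate 12 the ratio was 0.779, although Meg3 was high there (245 RPKM). In the 6 miR libraries the ratio was 0.707 to 0.8003, and in PBS replicates 7 and 11 it was 0.7997 and 0.755. The 4 libraries high in Meg3 were therefore not alike in the make-up of the transcript: 3 lay above all other libraries in this ratio and 1 lay among them. Which exons account for it cannot be read from row totals.

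Mirg, the host transcript of the downstream microRNA group, divided the libraries as Meg3 did. Its row (NR_028265, 110973191 to 110987667, plus strand) measured 15.3, 13.9, 13.8 and 15.3 RPKM in PBS replicates 8, 9, 10 and 12. PBS replicates 7 and 11 were at 2.79 and 3.42 RPKM. The lowest, median and highest miR values were 3.10, 3.73 and 5.16 RPKM. The miR and PBS groups therefore overlap through PBS replicates 7 and 11 alone, and the other 4 PBS libraries lie above every miR library. Within PBS the SD of Mirg on the log2 scale was 1.07, at percentile 99.8 of the tested rows, and in miR 0.22, at percentile 90.2.

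The difference in Mirg between miR and PBS did not pass when all rows were taken into account. The miR mean was 3.94 ± 0.715 RPKM and the PBS mean 10.7 ± 5.96 RPKM (SD, n = 6), which on the log2(RPKM + 0.5) scale is a difference of -1.09 (SE 0.38), miR minus PBS. The adjusted p in limma, a linear model with a variance estimate shared across rows, was 0.173 (Benjamini-Hochberg over 18289 rows with a mean of at least 1 RPKM). It passed without PBS replicate 7 (log2 difference -1.39, adjusted p = 0.0238 in limma) and without PBS replicate 11 (-1.34, adjusted p = 0.0472), when 7.67% and 4.34% of all rows passed too.

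Although Mirg and Meg3 divided the libraries alike, they did not keep a fixed proportion. Per 100 RPKM of Meg3, Mirg measured 9.67 in PBS replicate 8 and 4.39 in PBS replicate 9, with 7.25 and 6.25 in replicates 10 and 12. The miR libraries ran from 5.91 to 8.14, and PBS replicates 7 and 11 measured 5.52 and 5.91. Among the 4 high libraries Meg3 was thus highest in replicate 9 and Mirg in replicates 8 and 12.

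**Figure D2:**
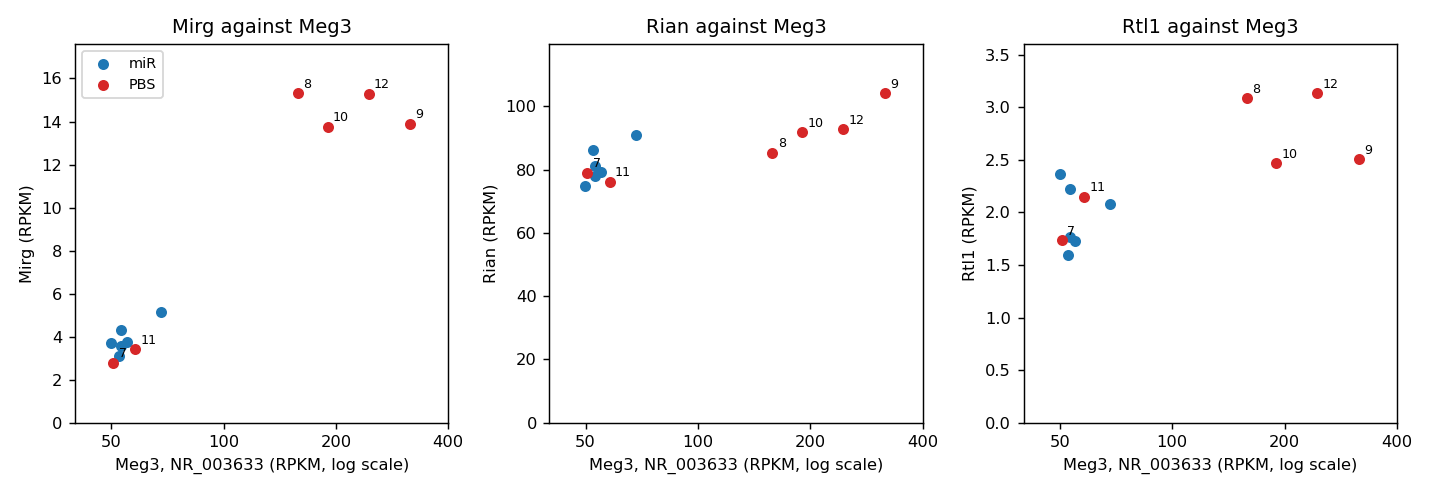
Mirg, Rian and Rtl1 (RPKM, linear vertical axes from 0) against Meg3 (RPKM, log scale) in the 12 libraries; blue points are miR, red points PBS with their replicate numbers. Mirg falls into separate sets of libraries at 2.79 to 5.16 and 13.8 to 15.3 RPKM, whereas Rian stays between 74.8 and 104 RPKM.

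Rian, which lies between Rtl1 and Mirg and hosts small nucleolar RNAs, followed only in part and by a small amount. Its row (NR_028261, 110842155 to 110899921, plus strand) had a lowest, median and highest value of 74.8, 80.3 and 90.8 RPKM in miR and of 76.2, 88.6 and 104 RPKM in PBS. The highest value was that of PBS replicate 9, which also had the highest Meg3. PBS replicates 12 and 10 came next (92.7 and 91.8 RPKM), just above miR replicate 6 (90.8 RPKM). PBS replicate 8 (85.4 RPKM) lay below miR replicates 5 and 6. The groups overlap widely. On the log2 scale miR minus PBS was -0.10 (SE 0.07; limma, adjusted p = 0.418). Per 100 RPKM of Meg3, Rian measured 32.9 to 54.0 in PBS replicates 8, 9, 10 and 12 and 131 to 164 in the other 8 libraries, so the 2 maternally expressed neighbours did not move in proportion.

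Of the protein-coding members, Rtl1 lay in the direction of Mirg by a much smaller amount. Its row (NM_184109, 110828379 to 110833613, minus strand) had a lowest, median and highest value of 1.59, 1.92 and 2.36 RPKM in miR and of 1.73, 2.49 and 3.13 RPKM in PBS. The 4 highest values belonged to PBS replicates 8, 9, 10 and 12 (2.47 to 3.13 RPKM), with miR replicate 2 next. On the log2 scale miR minus PBS was -0.28 (SE 0.12; limma, adjusted p = 0.214). It rests on about 198 to 543 reads per library. The antisense row 6430411K18Rik (NR_002848, 110829747 to 110831063, plus strand) lies wholly inside it. Whether counting used the strand is not given in the sources used here, so reads of the 2 strands cannot be told apart. The antisense row was 1.29 to 1.68 times the Rtl1 row in miR, 1.40 and 1.47 times in PBS replicates 7 and 11, and 1.72 to 1.93 times in PBS replicates 8, 9, 10 and 12. Here the 4 libraries lie above all others, for the antisense row relative to Rtl1 as well as for both rows by themselves.

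Dlk1, at the upstream end, showed another pattern. Its row NM_001190703 (110691665 to 110701546, plus strand) had a lowest, median and highest value of 58.3, 68.5 and 79.5 RPKM in miR and of 47.1, 74.2 and 88.7 RPKM in PBS. The lowest library was PBS replicate 7 and the highest PBS replicate 11, the 2 that were alike and low in Meg3 and Mirg. On the log2 scale miR minus PBS was -0.08 (SE 0.13; limma, adjusted p = 0.733). The 5 rows of Dlk1 differed from each other by at most 1.14 times within a library and gave the same picture, with adjusted p-values of 0.712 to 0.733 in limma. The SD of Dlk1 within PBS was 0.33 on the log2 scale and fell to 0.16 without replicate 7.

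Counted over the rows tested, no member passed. Of the 8 tested rows of Dlk1, Rtl1, Rian and Mirg, 0 had an adjusted p below 0.05 in limma, as did 0.0% of all 18289 rows. At an unadjusted p under 0.05 there were 2 (Mirg and Rtl1), against 20.8% of all rows. All 8 had a lower mean in miR, as did 47.9% of all rows (median log2 difference -0.08, against 0.0072 over all rows), but 3 of the 5 Dlk1 rows were higher in miR once libraries were corrected for transcript GC content (0.04 to 0.07). The 5 Dlk1 rows share reads, so the 8 rows stand for 4 genes. PBS replicates 8, 9, 10 and 12 had the 4 highest values in the 3 Meg3 rows, which chose the set and are not counted. Of the 8 tested rows of the other members, 2 (Rtl1 and Mirg) had this order, as did 8.69% of all tested rows. A gap of over 2-fold between those 4 and the remaining 8 libraries was found in 29 rows (0.159%). Among them were Mirg and Mir3072, a precursor row inside it. The 3 Meg3 rows and the rows Mir1906-1 and Mir1906-2 inside Meg3 were among them too, but Meg3 chose the set.

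The rows between the members show where along the cluster the division lies. Between Dlk1 and Dio3 the table has 64 other rows, most of them microRNA precursors, of which 23 had a mean of at least 1 RPKM and 18 were listed at 0 in every library. None of the 23 passed in limma, and 19 were lower in miR (median log2 difference -0.72), as were 47.9% of all tested rows. Of the 23, 3 lie inside Meg3 and share its reads. Another 6 (Mir3070a, Mir3070b, Mir341, AF357355, Mir409 and Mir369) reached the filter through PBS alone, so the filter itself makes them lower in miR and their direction is no finding. The 14 others all lie inside Rtl1, Rian or Mirg and may share reads with them, so they do not count apart from these members. Of these 14, 10 were lower and 4 higher (median log2 difference -0.46). Of the lower ones, 4 had an unadjusted p under 0.05 in limma (11.7% of all rows were lower at this level). Without PBS replicate 7, 3 of these 14 passed (6430411K18Rik, Mir410 and Mir3072), when 7.67% of all rows did, and without PBS replicate 11 only Mir3072, when 4.34% did.

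Inside Meg3 the rows Mir1906-1 and Mir770 behaved as their host. Mir1906-1 (110782751 to 110782830) measured 47.3 to 62.2 RPKM in miR, 38.2 and 57.0 RPKM in PBS replicates 7 and 11, and 136 to 342 RPKM in the other 4 PBS libraries. The row Mir1906-2 has the same coordinates and identical values, and a second Mir1906-1 row, on chromosome X, is listed at 0 in all libraries. Mir770 (110801902 to 110801995) measured 50.5 to 85.7 RPKM in miR, 85.6 and 91.0 RPKM in PBS replicates 7 and 11, and 157, 539, 169 and 257 RPKM in replicates 8, 9, 10 and 12. Mir770 was above the Meg3 row NR_003633 in 10 of 12 libraries, all but PBS replicates 8 and 10. Both rest on at least 84.3 reads in each library.

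Between Meg3 and Rtl1 levels dropped to about 1 RPKM or less. There the row Mir3070a measured 0 to 0.932 RPKM in miR, 0.382 and 0.396 RPKM in PBS replicates 7 and 11 and 2.18 to 3.02 RPKM in the other 4, from at most about 10.2 reads. It is one of the rows that reach the filter through PBS alone, so no test is given for it. Inside Rtl1, where the 8 row means ran from 2.52 to 4.70 RPKM, 5 rows were lower in miR and 3 (Mir434, Mir3071 and Mir136) were higher. Mir431 measured 1.42 to 5.09 RPKM in miR and 3.17 to 6.96 RPKM in PBS, with PBS replicate 11 (6.52 RPKM) second highest. Mir433 measured 1.46 to 5.94 and 2.86 to 7.37 RPKM, and Mir127 3.63 to 6.07 and 2.08 to 7.06 RPKM. Mir3071 measured 1.32 to 6.47 and 2.85 to 4.68 RPKM. The groups overlap in all 4 of these rows, and PBS replicates 8, 9, 10 and 12 were not their 4 highest libraries. Each rests on about 2.95 to 28.5 reads per library, so smaller differences were not detectable.

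Inside Rian, the 30-base row AF357359 (110888919 to 110888948), the highest of the whole stretch, was level across the groups like its host. It measured 216 to 288 RPKM in miR and 180 to 314 RPKM in PBS, or 0.04 (SE 0.12) for miR minus PBS on the log2 scale. The 3 other tested rows inside Rian (Mir341, Mir1188 and AF357355) were at 0 to 5.77 RPKM. Each was highest in PBS replicate 9, but they rest on at most 13.8, 21.6 and 6.83 reads per library. Mir341 and AF357355 reach the filter through PBS alone, so their high values in PBS are no finding. Of the 28 rows between Rian and Mirg, which include most of the microRNA group downstream of Rian, none reached a mean of 1 RPKM and 15 were listed at 0 in all libraries.

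Inside Mirg all 6 tested rows had a lower mean in miR, with log2 differences of -1.86 to -0.67, and none passed. Of all tested rows, 47.9% were lower in miR. Among the 6, Mir409 and Mir369 reach the filter through PBS alone, so their direction is no finding. All 6 lie inside Mirg and may share its reads, so they do not count apart from the Mirg row. Mir3072 (110986088 to 110986170), near the downstream end of Mirg, measured 15.1, 13.9, 13.1 and 15.4 RPKM in PBS replicates 8, 9, 10 and 12. PBS replicates 7 and 11 were at 1.35 and 2.01 RPKM, and the miR libraries at 1.02 to 2.93 RPKM. Its gap between those 4 libraries and the remaining 8 was the widest of all 18289 tested rows (1.98 on the log2 scale). Mir410 (110981925 to 110982005) measured 16.8, 13.9, 11.8 and 18.6 RPKM in the same 4. In it PBS replicates 7 and 11 were at 1.32 and 3.63 RPKM, and the miR libraries at 1.46 to 7.15 RPKM. The 2 rows rest on about 2.01 to 46.5 reads per library. The sequences of their mature microRNAs are given above, but these values say nothing of the level of the mature forms.

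**Figure D3:**
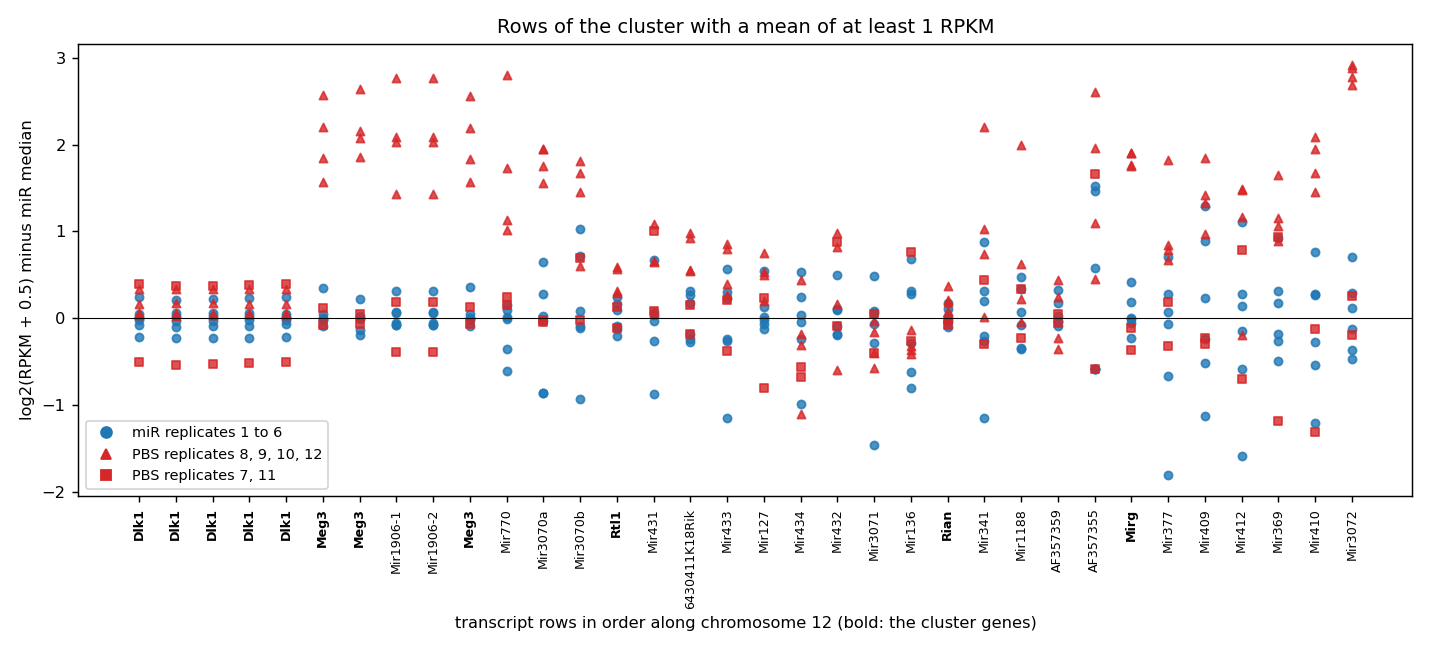
Log2(RPKM + 0.5) of each library minus the miR median of the row (vertical axis) for the 34 rows with a mean of at least 1 RPKM, in order along chromosome 12 (horizontal axis, cluster genes in bold); circles are miR, triangles PBS replicates 8, 9, 10 and 12, squares PBS replicates 7 and 11. The triangles stand clear of the other symbols at Meg3, Mir1906-1, Mir1906-2, Mir770, Mir3070a, Mirg, Mir410 and Mir3072, and stand above them by less at Rtl1 and 6430411K18Rik. At Dlk1 they mix with the other symbols, and at Rian replicate 8 alone does. Mir3070a reaches the filter through PBS alone. Mir1906-1, Mir1906-2 and Mir770 share the reads of Meg3, and Mir1906-1 and Mir1906-2 have identical values.

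The genes beside the cluster were looked at in the same way, and no contrast between them and the cluster was tested. Of 26 tested rows of 16 flanking genes (Evl to Begain on the Dlk1 side, Ppp2r5c to Traf3 on the Dio3 side), 14 had a lower mean in miR and 12 a higher one (median log2 difference -0.02). None passed in limma, and 5 had an unadjusted p under 0.05, where 20.8% of all rows did. In 21 of the 26 rows the values of PBS replicates 8, 9, 10 and 12 overlapped those of the other 8 libraries. They lay wholly above them in 1 row, of Degs2 (13.5 to 16.6 against 11.6 to 13.5 RPKM), where 8.69% of all tested rows had this order. They lay wholly below them in 4, namely Hsp90aa1 (60.9 to 66.0 against 68.3 to 83.9 RPKM), Wdr20a (4.63 to 4.91 against 5.08 to 5.75 RPKM) and 2 rows of Ppp2r5c. The share of all tested rows lying wholly below was not counted, so these counts are no finding about the flanking genes. These flanking genes other than Hsp90aa1 are named after their values were seen. The 2 of smallest p were the chaperone gene Hsp90aa1, at 70.5 to 83.9 RPKM in miR and 60.9 to 83.0 RPKM in PBS (log2 difference 0.23, adjusted p = 0.168 in limma), and Begain, which encodes a postsynaptic protein, at 30.4 to 47.6 and 38.4 to 48.0 RPKM (-0.28, adjusted p = 0.198). Hsp90aa1 passed without PBS replicate 11 (adjusted p = 0.0289 in limma), and a row of the sphingolipid enzyme gene Degs2 without PBS replicate 7 (adjusted p = 0.0386).

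**Figure D4:**
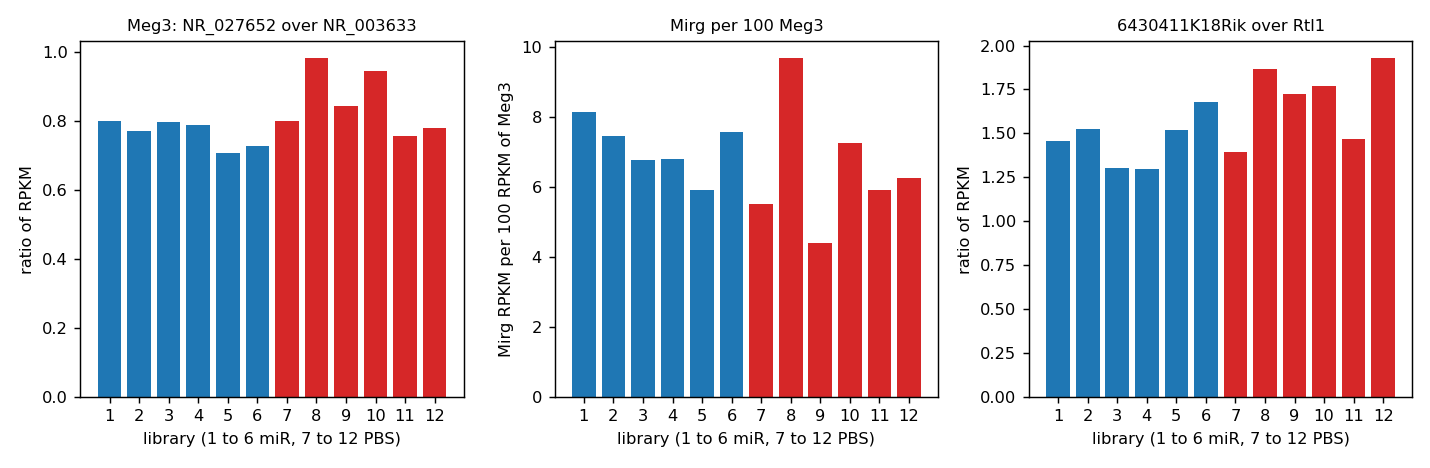
Ratios within each library (bars, vertical axes from 0; blue miR, red PBS, replicate number on the horizontal axis): Meg3 row NR_027652 over NR_003633, Mirg per 100 RPKM of Meg3, and the antisense row 6430411K18Rik over Rtl1. PBS replicate 12 has the antisense ratio of the other high libraries (1.93) but not their Meg3 row ratio (0.779).

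Whether members move together was then asked of correlations over libraries on the log2 scale. Meg3 and Mirg fall into separate sets of libraries, so no pooled correlation is given for their pairs. Among Dlk1, Rtl1 and Rian, Dlk1 and Rtl1 had a Pearson r of 0.65 over the 12 libraries (permutation p = 0.0164, adjusted p = 0.0548 over 10 pairs, 100000 resamples, 2-sided) and a Spearman rho of 0.63 (permutation p = 0.0320, adjusted p = 0.146). Without the 2 libraries farthest from the Dlk1 median, PBS replicates 7 and 11, r was 0.79 (n = 10). Within the 6 miR libraries it was 0.69 (exact permutation p = 0.128, rho 0.66). Rtl1 and Rian had r = 0.40 and rho = 0.36 over the 12 libraries (permutation p = 0.204 and 0.246, adjusted p = 0.407 and 0.492), and r = 0.34 without PBS replicates 8 and 12. Dlk1 and Rian had r = 0.11 and rho = 0.04 (permutation p = 0.753 and 0.905, adjusted p = 0.845 and 0.905), and r = 0.16 without PBS replicates 7 and 11. None of the 3 pairs passed the correction over all 12 libraries. Dlk1 and Rtl1 passed without miR replicate 5 (adjusted permutation p = 0.0484) and without PBS replicate 11 (0.0208). With quantile-normalized libraries r was 0.62 and the adjusted permutation p 0.0434, but there Dio3, below the filter, drops out. That correction covers fewer pairs, so this p cannot be set beside the others. Over all alternatives of Dlk1 and Rtl1 the adjusted permutation p ran up to 0.187. Dio3 pairs rest on 1 to 6 reads and are not described.

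Within the 6 miR libraries no pair of members other than Meg3 had an unadjusted exact permutation p under 0.05. In these libraries miR replicate 6 was the highest in Meg3, Mirg and Rian (68.1, 5.16 and 90.8 RPKM), and in Dlk1 and Rtl1 it was not.

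The genes most like each member were then looked up among all others. Likeness to Meg3 was measured as the root mean square difference of centred log2 values over the 12 libraries, among 13675 genes. It describes the nearest of many and carries no test. The 5 nearest were Miat (0.14), Snhg11 (0.15), A930011O12Rik (0.17), Leng8 (0.20) and Lime1 (0.29), on chromosomes 5, 2, 14, 7 and 2. On the same measure Mirg stood at 0.28, which would place it between Leng8 and Lime1. Rtl1, Rian and Dlk1 stood at 0.80, 0.86 and 0.92, near the 0.97 of a row that does not vary. Their ranks among the 13675 genes would be 572, 1252 and 2901. The measure depends on the size of a change as well as on the order of the libraries. For the nearest, Miat, the PBS values were 6.96, 21.5, 33.3, 23.9, 8.03 and 31.0 RPKM in replicates 7 to 12, with the same order of the 4 high libraries as Meg3. A list of nuclear-retained RNAs and their partners, chosen with these data known (Malat1, Neat1, Miat, Snhg11, Leng8 and Snrnp70, 6 of 6 above the filter), summed to 135 to 191 RPKM in miR, 370 to 592 RPKM in PBS replicates 8, 9, 10 and 12, and 151 and 164 RPKM in PBS replicates 7 and 11. Miat, Snhg11 and Leng8 were named above for likeness to Meg3, so the division of this sum is no separate finding. Most of the sum in PBS replicates 8, 9, 10 and 12 is Snhg11, at 214 to 370 RPKM. Neat1 and Snrnp70 were also highest in these 4 libraries, but Malat1 was not. Malat1 was at 9.83 RPKM in PBS replicate 8 and at 10.7 and 11.2 RPKM in miR replicate 3 and PBS replicate 11. The part of the listed RNAs in the division of Meg3 and Mirg was not tested.

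For the other members the 3 genes of highest Pearson r over the 12 libraries are named as a description. Mirg was nearest to Setd1a, Whamm and Col6a2. No r is given for it, since its values fall into separate sets. Setd1a measured 7.73 to 8.99 RPKM in miR, 7.99 and 8.49 RPKM in PBS replicates 7 and 11 and 11.2 to 12.2 RPKM in the other 4. Rian was nearest to A230057D06Rik, Memo1 and Usp28 (0.958, 0.941 and 0.939), all 3 highest in PBS replicate 9. Rtl1 was nearest to Ece2, Rgs9 and Gls2 (0.962, 0.952 and 0.950). Dlk1 was nearest to Kcnh1, Cd274 and Crh (0.934, 0.923 and 0.913). Crh, which encodes the releasing hormone of the stress axis, measured 5.32 RPKM in PBS replicate 7 and 19.6 RPKM in replicate 11, the libraries in which Dlk1 too was lowest and highest.

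Marker sums of most cell types overlapped between PBS replicates 8, 9, 10 and 12 and the other libraries. That of astrocytes did not, and that of choroid plexus was separate by a narrow margin only. The 5 neuronal genes, all above the filter, summed to 1009 to 1144 RPKM in miR and 973 to 1163 RPKM in PBS. The 4 oligodendrocyte genes summed to 467 to 764 and 309 to 1242 RPKM, with PBS replicates 7 and 11 at the 2 ends. The 5 astrocyte genes summed to 332 to 375 RPKM in miR, 348 and 351 RPKM in PBS replicates 7 and 11, and 277 to 311 RPKM in the other 4. Most of that sum is Slc1a3, at 177 to 202 RPKM in those 4 and 221 to 239 RPKM elsewhere. Aqp4 (18.2 to 23.6 against 25.2 to 30.6 RPKM) and Gjb6 (27.6 to 28.3 against 29.5 to 34.4 RPKM) were lower in those 4 too, while Gfap and Aldh1l1 mixed across the libraries. The 5 choroid plexus genes, 3 of them above the filter, summed to 7.56 to 9.47 RPKM in miR, 8.44 and 10.1 RPKM in PBS replicates 7 and 11, and 7.07 to 7.55 RPKM in the other 4, just below the miR range. None of the 5 choroid plexus genes separated PBS replicates 8, 9, 10 and 12 by itself. Clic6, most of the sum, was at 4.59 to 5.28 RPKM in them and at 4.83 and 5.23 RPKM in miR replicates 2 and 5. The sums for microglia, endothelium and thalamus ran from 40.6 to 51.3, 17.2 to 28.6 and 43.5 to 151 RPKM over all libraries. No listed gene was at 0 in all libraries. The astrocyte sum, and by a narrow margin the choroid plexus sum, were lower in the 4 libraries. The share of all tested rows lying wholly below in them was not counted, so no finding about cell types is drawn. The part of these sums in the result was not tested.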

How the data were processed

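Single-end reads of poly-A libraries, made from 250 ng of total RNA of PVN punches (1.0 mm needle, 300 µm slices), were run on 2 lanes, per the labels. The authors deposited RPKM values for 30399 RefSeq transcript rows in 12 libraries. The submitters' processing notes name mm9 and edgeR. The sources used here do not name the aligner, the counter or the use of strand in counting. Depth was computed from the steps of olfactory receptor rows. No 2 libraries were identical. Log2(RPKM + 0.5) of the 18289 rows with a mean of at least 1 RPKM was fitted with limma 3.58.1 (R 4.3.3, variance trend, 2-sided, adjusted p below 0.05). The fit was tested on simulated data. Permutation tests and figures used Python 3.11.15, scipy 1.17.1 and matplotlib 3.10.9. Rows that share reads were not separated.

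Named were all members, the 10 other cluster rows of highest mean, the 2 flanking genes of smallest p, and the genes most like each member. 6430411K18Rik, the rows of low level, Degs2, Wdr20a, Ppp2r5c and the counts over PBS replicates 8, 9, 10 and 12 were added after values were seen. The members and lists were chosen with earlier results of these data known. Alternatives were pseudocounts of 0.1 and 1, no filter or 5 RPKM, each library left out, 1 row per gene, a fit without the variance trend, rows summed per member, deviations from group means, and libraries scaled to a common median or quantile-normalized. A correction in 20 bins of GC content (GENCODE M21 transcripts) was added after the data were seen.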

Additional observations from a re-analysis of the deposited data

Results flagged for a closer look

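Meg3 in miR replicate 6 stood apart from the other 5 miR libraries, at 68.1 RPKM in the row NR_003633 and 67.2 RPKM in the row NR_027651, by a gap of 0.719 and 0.716 of the whole miR range. These 2 rows share their reads. Of 24 sets of 6 libraries examined (12 rows in each group) these 2 were set apart, and chance alone sets apart about 1 in 20.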

How the results depend on the processing

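No paired analysis was possible because no replicate number of the miR group (1 to 6) recurs in PBS (7 to 12). Of all rows, 0 passed in limma with all libraries, and 0 to 1402 with 1 library left out (1402 without PBS replicate 7, 793 without PBS replicate 11, 1 without miR replicate 3). For member rows the range was 0 to 1 (Mirg, without PBS replicate 7 or 11), for other cluster rows 0 to 9 (9 and 5 without those libraries) and for flanking rows 0 to 1. The 9 and 5 include rows that share reads with Meg3 and rows that reach the filter through PBS alone, which are no finding. Apart from these, 6430411K18Rik, Mir410 and Mir3072 passed without PBS replicate 7, and Mir3072 alone without PBS replicate 11. These rows lie inside Rtl1 or Mirg and may share reads with them. All other alternatives gave 0 calls. The log2 difference of the Dlk1 rows NM_001190703, NM_001190704 and NM_010052 was 0.062, 0.0748 and 0.0374 with GC correction, against -0.08 without it. At an unadjusted p under 0.05, 1678 rows were higher and 2135 lower in miR, against 2533 and 1684 with median-scaled, 2062 and 1982 with quantile-normalized and 705 and 1497 with GC-corrected libraries. The Dlk1 spread within PBS was 0.33, and 0.16 without PBS replicate 7. Of 10 member pairs without Meg3, 2 had an adjusted permutation p below 0.05 over 12 libraries, both with Mirg, whose values fall into separate sets, so nothing is read from them. With median-scaled libraries 1 pair passed, and 1 to 4 with a library left out (4 without PBS replicate 11). With quantile-normalized libraries 3 passed, but under a correction over fewer pairs, as the Dio3 pairs drop out there. The cause was not tested. Short precursor rows rest on a few reads each, which limits what they can show.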
